A study of Mus musculus with 12 samples.

Results

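Actc1, Acta1, Myh3, Myh8, Myl4, Tnnt2, Ankrd1 and Ankrd2 are 8 muscle genes grouped here as cardiac actin and developmental contractile genes, described array by array in the plantaris, a fast calf muscle of the mouse. They were taken by their symbol in the platform annotation, 8 of the 22180 genes in the deposited table. Where a gene had several rows, its row was selected on the highest 12-array mean, which mattered for Myh8 alone. All 8 were among the 13747 genes tested, those above the table median, a log2 value of 4.56, on at least 3 arrays. Myh3 lay nearest that limit, above it on 6 of 12 arrays, and the other 7 genes were above it on all 12. The 8 symbols were chosen with earlier results of these arrays known, so the differences given below are a description of these arrays and no independent support for a pattern.

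The study crossed genotype with exercise in male mice aged 12 weeks. The groups were REDD1 knockout mice sampled 1 hour after finishing a single bout of aerobic exercise (KO exercised), sedentary REDD1 knockout mice (KO sedentary), wild-type mice sampled at the same time after the same exercise (WT exercised) and sedentary wild-type mice (WT sedentary). Each group had 3 arrays, all mice had gone 3 hours without food, and the muscle was removed under isoflurane. REDD1, the product of Ddit4, is a stress-induced inhibitor of the growth kinase complex mTORC1. The labels do not say which part of Ddit4 was deleted, whether the loss was in every tissue, or whether mice shared a litter or a processing day. Replicate numbers follow the order of the samples, and p-values measure the spread between these arrays only.

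The contractile unit of muscle, the sarcomere, is assembled from protein isoforms that change as a muscle matures. Cardiac alpha-actin (Actc1), embryonic myosin heavy chain (Myh3), perinatal myosin heavy chain (Myh8), the embryonic and atrial light chain (Myl4) and cardiac troponin T (Tnnt2) are used by developing skeletal muscle and are largely replaced by adult isoforms, among them skeletal alpha-actin (Acta1). They reappear in regenerating fibres, and developmental myosins persist in the fibres of muscle spindles. Ankrd1 and Ankrd2 are not contractile proteins but ankyrin-repeat proteins that bind the spring protein titin, and both are known to respond to muscle stretch.

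Ddit4 measured 6.46, 5.72 and 6.77 on the KO exercised arrays, 5.32, 5.44 and 5.08 on KO sedentary, 9.05, 8.40 and 8.62 on WT exercised and 6.13, 5.83 and 6.02 on WT sedentary arrays (log2), without overlap between the genotypes in either condition. The 10 adult skeletal muscle markers lay within -0.0725 and 0.067 of their 12-array mean on every array, as a mean over the list (log2). Of 10 heart markers 7 passed the filter, and their mean level ranged from -0.145 to 0.162, while Myl7, Mybpc3 and Ryr2 were too dim to be tested. KO sedentary replicate 3 stood apart: the 10 fibroblast and matrix markers tested were all highest there, 0.995 above their 12-array mean, against -0.32 to 0.169 on the other 11 arrays. WT exercised replicate 1 stood apart too, with the highest smooth muscle marker level (0.537) of the 12 arrays. The level of the 4 Schwann cell markers tested varied across more arrays. It was 0.984 on WT exercised replicate 1, 0.896 on KO sedentary replicate 3, 0.765 on KO exercised replicate 2 and -0.725 on WT exercised replicate 2. In whole muscle, more cells of a type and more RNA per cell cannot be told apart.

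Actc1 was lower in KO plantaris than in WT plantaris, and it was the 1 gene of the 8 that passed the test in any of 7 comparisons, which called 0 to 1.6% of all genes. Cardiac alpha-actin is the main actin of the heart and the fetal actin of skeletal muscle. Its log2 values were 7.69, 7.88 and 6.97 on the KO exercised arrays, 7.78, 8.35 and 8.34 on KO sedentary, 9.12, 9.62 and 9.13 on WT exercised and 8.14, 9.96 and 9.11 on WT sedentary arrays. All KO exercised arrays lay below all WT exercised arrays, whereas WT sedentary replicate 1 fell among the KO sedentary arrays. Across conditions 4 of 6 KO arrays were below the lowest WT array, and the KO array was the lower in 34 of 36 pairs. These pairs share the same 12 arrays and mix the conditions, and the share of all genes so ordered was not counted.

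Averaged over both conditions, Actc1 measured 7.84 ± 0.509 in KO muscle and 9.18 ± 0.617 in WT muscle (log2, SD, n = 6 each). The difference was -1.34 (SE 0.24, 95% confidence interval -1.86 to -0.83), a 2.54-fold lower level (limma adjusted p = 0.0212). This test called 0.546% of the 13747 genes, 75 in all, and 1 of these 8. The call was lost without WT sedentary replicate 3 (adjusted p = 0.0605), without WT exercised replicate 2 (0.0655) or without KO sedentary replicate 1 (0.0619), and the difference ranged from -1.58 to -1.12 over all arrays left out in turn. An analysis of variance gene by gene, with no spread shared across genes, gave Actc1 an adjusted p of 0.254.

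Within exercised mice the Actc1 difference was -1.77 (SE 0.34, interval -2.51 to -1.04), 3.42-fold lower in KO muscle, and missed the threshold (limma adjusted p = 0.0558). It passed with only the exercised arrays in the fit (adjusted p = 0.0316), with array medians aligned (0.0460) or with array weights (0.00615). In 15 of the 20 alternatives it missed the threshold again. The adjusted p was 0.491 by an analysis of variance, and by limma 0.104 with no intensity trend and 0.267 without WT exercised replicate 2. Among exercised mice 0.175% of all genes were called, and 5.67% had all KO exercised arrays below all WT exercised arrays. Within sedentary mice it was -0.91 (SE 0.34, interval -1.65 to -0.18, adjusted p = 0.522), in a comparison that called 0.138% of genes. WT sedentary arrays were the most spread, and the sedentary difference moved to -1.38 without WT sedentary replicate 1 and to -0.47 without replicate 2. The genotype differences in exercised and sedentary mice were not shown to differ from each other: their difference was -0.86 (SE 0.49, interval -1.90 to 0.18, adjusted p = 0.997).

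Neither exercise difference of Actc1 passed the test. The exercised minus sedentary difference was -0.64 in KO muscle (SE 0.34, adjusted p = 0.645) and 0.22 in WT muscle (SE 0.34, adjusted p = 0.935). Beside the genotype difference, the slow-fibre contractile list (10 genes) had levels of -0.565 to 0.602 on KO arrays and -0.43 to 0.0542 on WT arrays, and the 5 muscle spindle markers tested had levels of -0.0576 to 0.158 on KO arrays and -0.136 to 0.066 on WT arrays. The slow-fibre level was 0.203, -0.0944 and 0.590 on KO exercised arrays and -0.0702, -0.0776 and 0.0102 on WT exercised arrays. Its genes had a median genotype difference of 0.37 in exercised mice, 7 of 10 positive and 0 called. In sedentary mice the median was 0.07, with 5 of 10 positive and 0 called. None of the 10 slow-fibre, 7 heart or 15 developmental genes tested was called between genotypes in the averaged comparison. It called 0.546% of all genes, so counts of 0 in such short lists tell little. At a limma unadjusted p under 0.05, 1 slow-fibre gene was higher and 2 developmental genes were lower in KO muscle. Of all genes, 4.18% were higher and 5.18% lower. The part of fibre type or spindle content in the Actc1 difference was not tested.

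Acta1, the actin of adult skeletal muscle, held nearly the same level throughout. It measured 13.63, 13.60 and 13.65 on KO exercised arrays, 13.59, 13.49 and 13.57 on KO sedentary, 13.61, 13.61 and 13.58 on WT exercised and 13.52, 13.60 and 13.55 on WT sedentary arrays (log2). The 12 values spanned 0.153 and lay close to the highest value in the table, 13.9. Whether its signal was saturated was not tested. Its genotype difference averaged over conditions was 0.01 (SE 0.04, interval -0.07 to 0.10). The KO exercised arrays lay above the KO sedentary arrays by 0.07 (SE 0.06, adjusted p = 0.799), an order that 7.13% of all genes showed. The values of the actin genes did not track each other over the 12 arrays, which they share (Pearson r = -0.138, Spearman rho = -0.189, a description only).

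**Figure D1:**
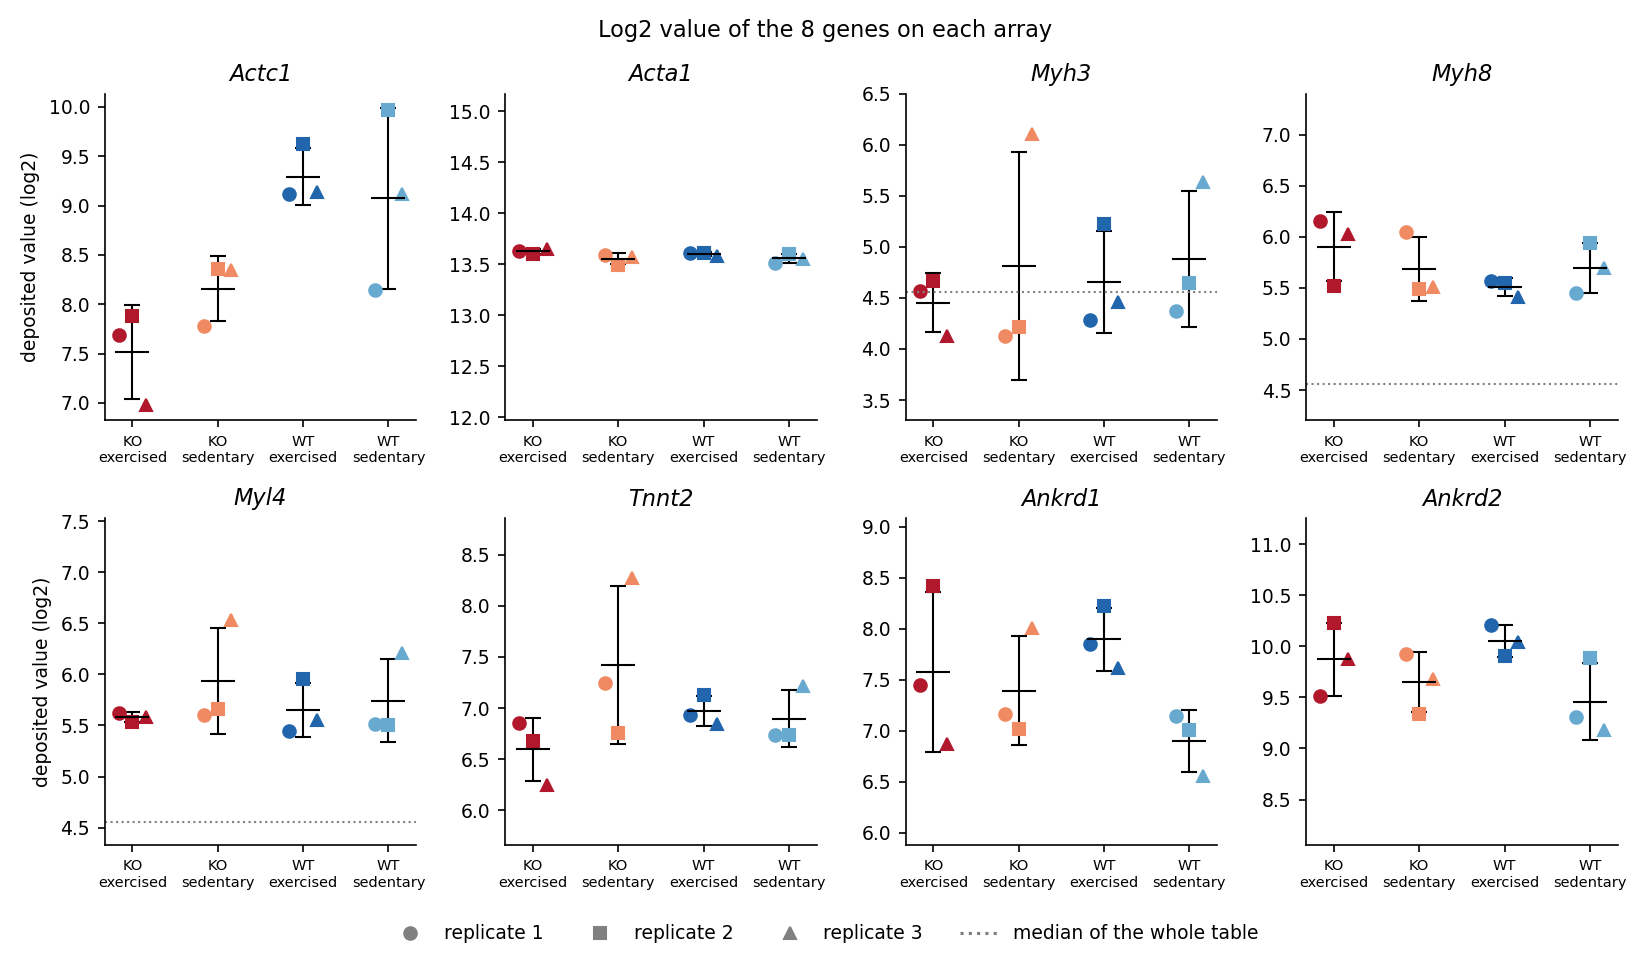
Deposited log2 value (vertical axes, each panel spanning its own range) of the 8 genes on each array, by group: points are arrays, bars the mean and SD of 3 arrays, and the dotted line the median of the whole table. Actc1 sits between 6.97 and 7.88 on KO exercised arrays and between 9.12 and 9.62 on WT exercised arrays, while Acta1 spans 0.153 over all 12.

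The upstream sequences of the actin genes are shown because their levels behaved unlike each other while both promoters are textbook targets of the serum response factor SRF. They are RefSeq windows of the GRCm38.p6 build, from 250 bases before to 50 after the annotated transcript start, read 5′ to 3′ on the gene's strand. Actc1 lies at chr2:114052826-114053125 and Acta1 at chr8:123894726-123895025, both on the minus strand. Capitals mark matches to the CArG box (the SRF motif), to TATAAA and to CATTCC (the MCAT motif of TEAD factors), searched on both strands.
Actc1: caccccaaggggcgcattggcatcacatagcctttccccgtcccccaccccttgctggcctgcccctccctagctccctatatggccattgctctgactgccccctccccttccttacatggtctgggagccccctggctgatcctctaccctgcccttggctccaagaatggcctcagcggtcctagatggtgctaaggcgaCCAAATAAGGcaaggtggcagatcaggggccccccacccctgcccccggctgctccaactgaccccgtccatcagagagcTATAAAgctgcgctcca
Acta1: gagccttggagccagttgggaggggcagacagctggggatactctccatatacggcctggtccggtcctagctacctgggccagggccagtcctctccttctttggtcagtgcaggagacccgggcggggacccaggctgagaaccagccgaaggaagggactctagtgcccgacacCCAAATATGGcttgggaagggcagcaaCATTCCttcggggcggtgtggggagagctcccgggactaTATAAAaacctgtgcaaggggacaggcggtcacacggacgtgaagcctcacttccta
Each window held 1 CArG match, CCAAATAAGG at position -47 of Actc1 and CCAAATATGG at position -73 of Acta1, counting from the first transcribed base as 0. CArG matches occurred in 1.629% of 32851 RefSeq promoter windows of this length. None of the other 6 genes had one in its windows. The TATAAA match began at position 33 of Actc1, after the annotated start, and at position -7 of Acta1. These are letter matches and not measured binding sites.

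Myh3, Myl4 and Tnnt2 were highest on the same array rather than in the same group. Myh3, the embryonic myosin heavy chain, measured 4.57, 4.67 and 4.12 on KO exercised arrays, 4.13, 4.22 and 6.11 on KO sedentary, 4.28, 5.23 and 4.46 on WT exercised and 4.37, 4.65 and 5.63 on WT sedentary arrays (log2). Of these values 6 of 12 were above the table median, and KO sedentary replicate 3, WT sedentary replicate 3 and WT exercised replicate 2 stood above the rest in that order. Myl4, the light chain of embryonic and atrial myosin, measured 5.63, 5.54 and 5.58 on KO exercised arrays, 5.60, 5.66 and 6.53 on KO sedentary, 5.45, 5.95 and 5.55 on WT exercised and 5.51, 5.50 and 6.21 on WT sedentary arrays. The same 3 arrays led in the same order.

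Tnnt2, the troponin T of the heart and of developing skeletal muscle, measured 6.85, 6.68 and 6.25 on KO exercised arrays, 7.24, 6.76 and 8.27 on KO sedentary, 6.93, 7.13 and 6.85 on WT exercised and 6.73, 6.74 and 7.22 on WT sedentary arrays (log2). KO sedentary replicate 3 was again the highest, by about 1 log2 unit over the next array. Over the 12 arrays Myh3 and Myl4 had a Pearson r of 0.927 but a Spearman rho of 0.434, and r fell to 0.635 without KO sedentary replicate 3 and WT sedentary replicate 3. For Myl4 with Tnnt2 r was 0.826, and 0.358 without those arrays. The likeness therefore rested on a few arrays, and it shares their RNA and hybridisation.

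Some other genes of developing or regenerating muscle had high values on the same arrays. In a list of 15 such genes tested, 7 were highest on KO sedentary replicate 3 and 3 on WT exercised replicate 2, where 11.2% and 7.97% of all genes tested were highest. The list's level was 0.488 on KO sedentary replicate 3, 0.279 on WT exercised replicate 2 and 0.0761 on WT sedentary replicate 3, and at most 0.003 elsewhere. Mymk, the myoblast fusion gene myomaker, measured 6.27, 6.02 and 5.59 on these 3 arrays and 4.35 to 5.12 on the other 9. Ncam1, the adhesion molecule of regenerating and denervated fibres, measured 7.64, 7.44 and 7.001 there and 6.52 to 7.06 on the other 9, so that WT exercised replicate 3 exceeded WT sedentary replicate 3. Cdh15, the muscle cadherin gene of the same list, had its lowest value on KO sedentary replicate 3, at 5.90, against 5.95 to 6.28 on the other 11. These 3 genes were picked for naming after their values were seen.

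The fibroblast and matrix level was also highest on KO sedentary replicate 3. It was 0.995 there, against 0.129 on WT exercised replicate 2 and -0.0968 on WT sedentary replicate 3. Over the 12 arrays, as a description, Tnnt2 followed that level by value and by rank (r = 0.939, rho = 0.776). KO sedentary replicate 3 was the highest array in both, and r without it was not calculated. For Myl4 r was 0.729 and rho 0.238, for Myh3 r was 0.670 and rho 0.294, and for Actc1 r was 0.117 and rho 0.350. Leukocyte markers were also high on KO sedentary replicate 3, at 0.45. The part of these other cells in the 3 genes' values was not tested.

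**Figure D2:**
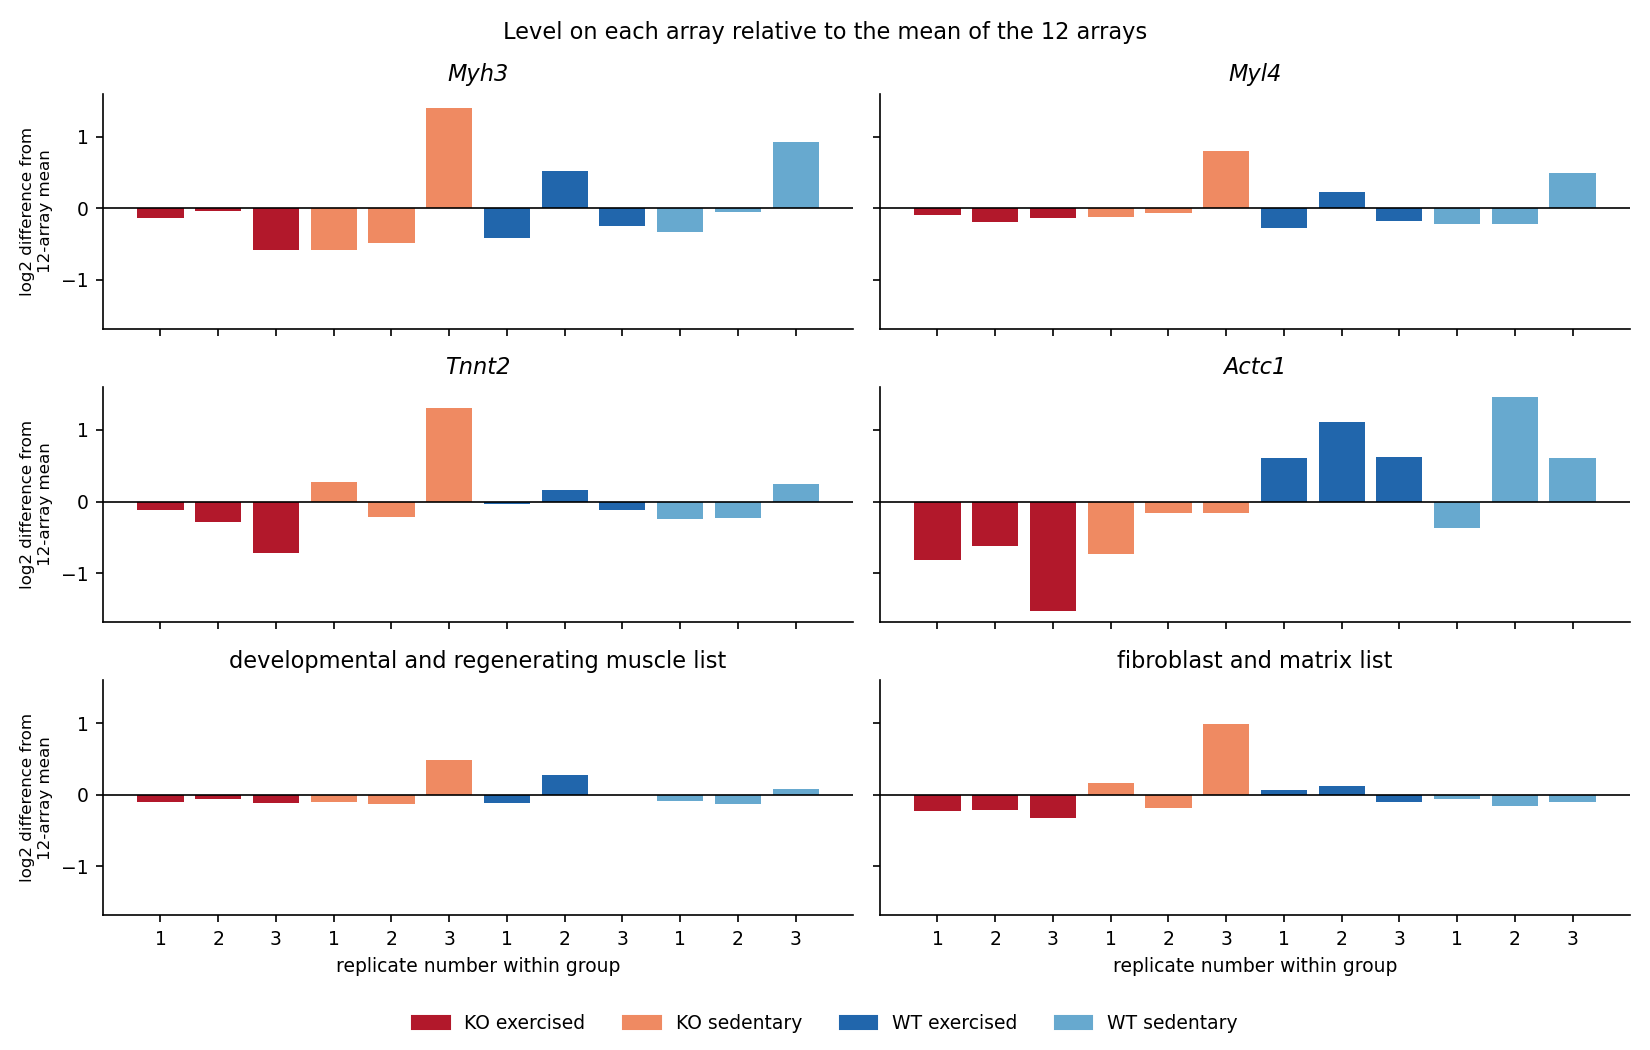
Log2 difference from the 12-array mean on each array (bars, coloured by group, numbered by replicate) for Myh3, Myl4, Tnnt2 and Actc1, and as a mean over the 15 developmental and 10 fibroblast and matrix genes tested. KO sedentary replicate 3 is the tallest bar in 5 panels (0.488 for the developmental list, 0.995 for the matrix list). Actc1 is lower in KO muscle on average, but WT sedentary replicate 1 lies below KO sedentary replicates 2 and 3.

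No difference in these 3 genes passed the test in any comparison. Tnnt2 after exercise in KO muscle was at -0.83 (SE 0.28, limma adjusted p = 0.335), and at -0.41 without KO sedentary replicate 3. The difference of its exercise effects, KO minus WT, was -0.90 (SE 0.39, adjusted p = 0.997), and -0.48 without that array. For Myh3 the exercise difference in KO muscle was -0.36 (SE 0.44), and 0.28 without that array. For Myl4 it was -0.35 (SE 0.23), and -0.05 without it. Between genotypes, averaged over conditions, the differences were -0.14 (SE 0.31) for Myh3, 0.06 (SE 0.16) for Myl4 and 0.08 (SE 0.20) for Tnnt2. Without KO sedentary replicate 3 they were -0.46, -0.09 and -0.14 in that order.

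Myh8, the perinatal myosin heavy chain, did not share the pattern in its selected row. It measured 6.16, 5.52 and 6.03 on KO exercised arrays, 6.05, 5.49 and 5.51 on KO sedentary, 5.57, 5.55 and 5.41 on WT exercised and 5.45, 5.94 and 5.70 on WT sedentary arrays (log2). The genotype difference in exercised mice was 0.39 (SE 0.18, adjusted p = 0.754), with KO exercised replicate 2 among the WT exercised arrays. The other Myh8 row, with a mean of 4.31 and above the table median on 2 of 12 arrays, was highest on KO sedentary replicate 3 at 5.42, as Myh3 was. The rows disagreed: with their mean, the exercise difference in KO muscle was -0.17, against 0.22 from the selected row, and the genotype difference in exercised mice was 0.09.

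The starts of Myh3 and Myl4 are shown because these genes had the highest Pearson r of any pair among the 8. The windows lie at chr11:67078050-67078349 and chr11:104550413-104550712 in the GRCm38.p6 build, both on the plus strand, from the same RefSeq source. Capitals mark the TATAAA match.
Myh3: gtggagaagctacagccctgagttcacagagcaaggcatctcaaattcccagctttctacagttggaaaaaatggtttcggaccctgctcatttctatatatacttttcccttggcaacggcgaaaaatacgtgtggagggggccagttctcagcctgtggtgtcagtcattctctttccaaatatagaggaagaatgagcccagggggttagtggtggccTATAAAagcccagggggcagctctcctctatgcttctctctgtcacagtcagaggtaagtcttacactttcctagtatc
Myl4: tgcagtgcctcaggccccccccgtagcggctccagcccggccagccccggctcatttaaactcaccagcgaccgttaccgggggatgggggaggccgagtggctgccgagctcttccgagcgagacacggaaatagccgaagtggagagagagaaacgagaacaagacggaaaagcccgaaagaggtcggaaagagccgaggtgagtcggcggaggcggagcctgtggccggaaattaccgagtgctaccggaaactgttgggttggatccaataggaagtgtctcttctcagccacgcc
The Myh3 window had TATAAA at position -29 and 1 E-box match (CANNTG), a motif found in 72.31% of all windows. The Myl4 window held none of the 5 motifs searched. TATAAA occurred in 13.62% of all windows.

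Ankrd1 and Ankrd2 had higher values in WT muscle after exercise, without passing the test over all genes. Ankrd1, also called cardiac ankyrin repeat protein, measured 7.44, 8.41 and 6.87 on KO exercised arrays, 7.16, 7.02 and 8.005 on KO sedentary, 7.85, 8.22 and 7.61 on WT exercised and 7.14, 7.01 and 6.55 on WT sedentary arrays (log2). All WT exercised arrays lay above all WT sedentary arrays, whereas the KO groups overlapped and KO exercised replicate 2 and KO sedentary replicate 3 were each the highest of their group. Ankrd2, the titin-binding member typical of slow fibres, measured 9.51, 10.23 and 9.87 on KO exercised arrays, 9.92, 9.34 and 9.68 on KO sedentary, 10.21, 9.90 and 10.04 on WT exercised and 9.31, 9.88 and 9.18 on WT sedentary arrays. The WT groups were again separate, though narrowly, with 9.90 and 9.88 on the nearest arrays, and the KO groups were mixed.

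In WT muscle the exercise difference was 0.99 for Ankrd1 (SE 0.32, interval 0.31 to 1.68, 1.99-fold, limma adjusted p = 0.311) and 0.60 for Ankrd2 (SE 0.20, interval 0.17 to 1.02, 1.51-fold, adjusted p = 0.337). In this comparison 0.567% of genes were called, none of the 8, and 5.75% had all WT exercised arrays above all WT sedentary arrays. In KO muscle the exercise difference was 0.18 for Ankrd1 (SE 0.32, adjusted p = 0.925) and 0.23 for Ankrd2 (SE 0.20, adjusted p = 0.827), where 0.276% of genes were called and none of the 8. With only the WT arrays in the fit, Ankrd1 passed in WT muscle (adjusted p = 0.0414). The Ankrd1 value in KO muscle was -0.24 without KO exercised replicate 2 and 0.54 without KO exercised replicate 3.

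The exercise effects were not shown to differ between genotypes. The difference of the effects, KO minus WT, was -0.81 for Ankrd1 (SE 0.45, interval -1.78 to 0.16) and -0.37 for Ankrd2 (SE 0.28, interval -0.97 to 0.23), both at an adjusted p of 0.997. That comparison called 0% of genes, with a smallest limma adjusted p of 0.633 and 620 of 13747 genes at an unadjusted p under 0.05, Tnnt2 alone among the 8. Averaged over genotypes, exercised minus sedentary was 0.59 for Ankrd1 (SE 0.23, adjusted p = 0.311) and 0.41 for Ankrd2 (SE 0.14, adjusted p = 0.222), beside 1.6% of all genes called and none of the 8. Across all 8 genes the median exercise difference was -0.14 in KO muscle and 0.06 in WT muscle, with 4 and 5 positive, and the medians over all genes were -0.00 and -0.02. The median genotype difference of the 8, averaged over conditions, was 0.04 with 6 positive, and over all genes it was -0.01.

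**Figure D3:**
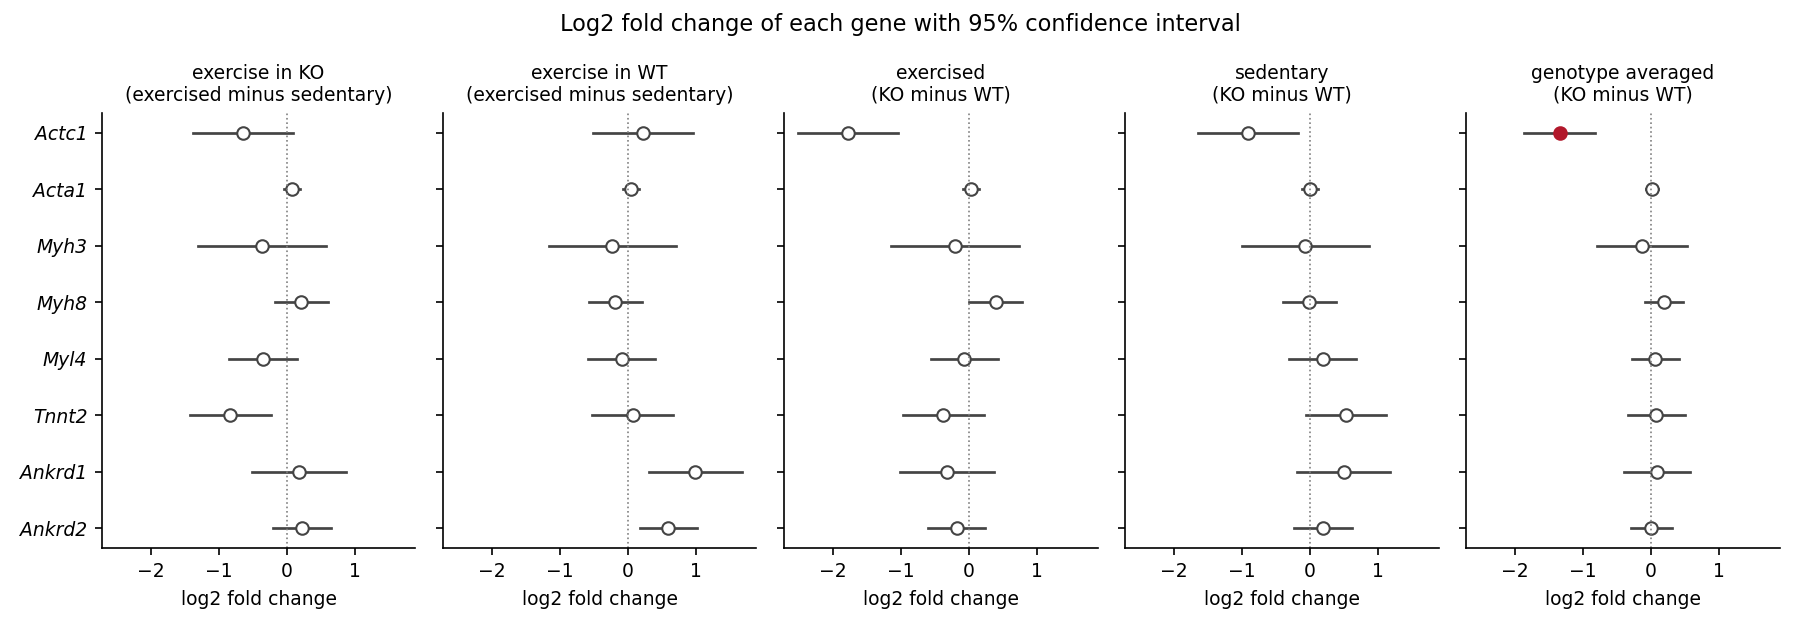
Log2 fold change (horizontal axes) of the 8 genes with its 95% confidence interval in 5 comparisons, with filled points for adjusted p under 0.05. Actc1 between genotypes averaged over conditions (-1.34) is the 1 filled point, and the intervals of Ankrd1 and Ankrd2 lie above 0 after exercise in WT muscle. Other unfilled points with intervals that exclude 0 are Tnnt2 after exercise in KO muscle (-1.42 to -0.24) and Myh8 in exercised mice (0.002 to 0.78). The same holds for Actc1 in exercised and in sedentary mice.

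Some genes of the pathways counted beside Ankrd1 and Ankrd2 were called after exercise. Over all genes tested, the shares called were 0.276% in KO muscle, 0.567% in WT muscle and 1.6% averaged over genotypes. Ccn2, a matrix-associated growth factor gene and a target of the mechanosensitive regulators YAP and TEAD, measured 8.52, 8.57 and 8.12 on KO exercised arrays, 7.80, 7.70 and 7.70 on KO sedentary, 8.67, 8.53 and 8.30 on WT exercised and 7.49, 7.49 and 7.86 on WT sedentary arrays (log2). Exercised arrays lay above sedentary arrays in both genotypes, an order that 7.13% of all genes showed in KO muscle and 5.75% in WT muscle. Ccn2 rose by 0.89 in WT muscle (SE 0.14, limma adjusted p = 0.00460) and by 0.78 averaged over genotypes (SE 0.10, adjusted p = 0.000427), and its difference of 0.67 in KO muscle missed the threshold (adjusted p = 0.0557, 0.0393 without WT exercised replicate 1 and 0.164 without KO sedentary replicate 3). It was the 1 of 10 YAP and TEAD pathway genes called in WT muscle. The list's median was 0.12 there and -0.00 in KO muscle.

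Among 25 titin-linked and Z-disc genes tested, 0 were called after exercise in either genotype alone, with medians of 0.09 in KO muscle and 0.04 in WT muscle. At an unadjusted p under 0.05, 4 were higher in KO muscle and 7 in WT muscle, beside 4.31% and 3.95% of all genes tested, and 0 were lower in either. Averaged over genotypes, 2 were called, both higher, beside 1.6% of all genes called. Pdlim5, a Z-disc scaffold gene, rose by 0.38 (SE 0.07, limma adjusted p = 0.0110). Trim63, which encodes the ubiquitin ligase MuRF1 that binds titin, rose by 0.79 (SE 0.16, adjusted p = 0.0193). Csrp3, which encodes the Z-disc stretch protein MLP, had a difference of 0.66 in WT muscle (SE 0.20, adjusted p = 0.264). Its values followed those of Ankrd2 over the 12 arrays (r = 0.910, rho = 0.846, and r = 0.876 without WT sedentary replicates 1 and 3).

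**Figure D4:**
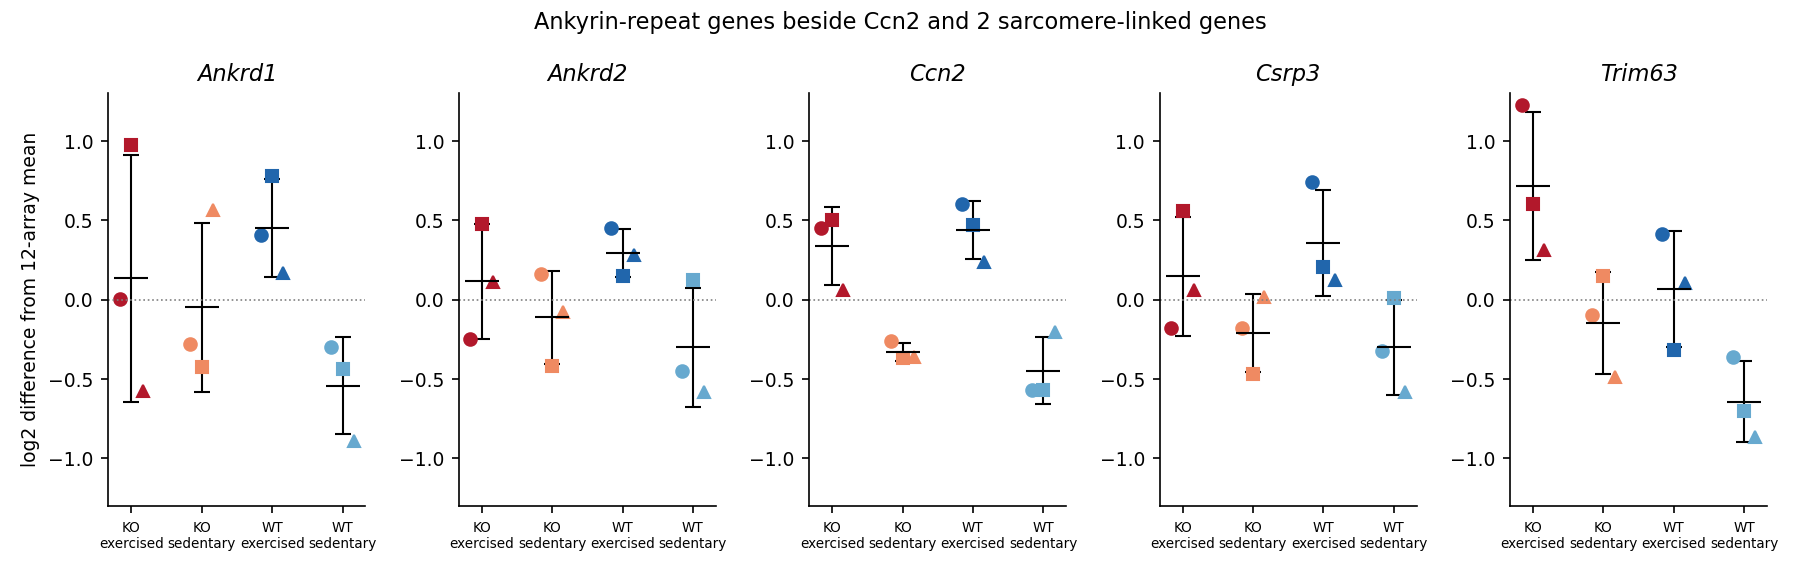
Log2 difference from the 12-array mean (vertical axis) of Ankrd1, Ankrd2, Ccn2, Csrp3 and Trim63 on each array by group, with circles, squares and triangles for replicates 1, 2 and 3 and bars for the mean and SD of 3 arrays. Exercised and sedentary arrays separate in both genotypes for Ccn2, whose exercise differences were 0.67 in KO muscle and 0.89 in WT muscle, while the KO groups of Ankrd1 overlap.

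SRF and its cofactors drive actin genes, so 22 other genes of that pathway were counted. After exercise 0 of 22 were called in KO muscle, with a median of 0.04 and 13 positive. In WT muscle 1 of 22 was called, with a median of 0.26 and 17 positive. The shares of all genes called were 0.276% in KO muscle and 0.567% in WT muscle. At a limma unadjusted p under 0.05, 3 of 22 were higher and 1 lower in KO muscle, and 7 higher and 0 lower in WT muscle. Of all genes, 4.31% were higher and 4.61% lower in KO muscle, and 3.95% higher and 4.26% lower in WT muscle. The gene called in WT muscle was Junb, an immediate-early transcription factor gene, at 0.98 (SE 0.20, limma adjusted p = 0.0410). It measured 7.41 on WT exercised replicate 1, and without that array its difference was 0.73 (adjusted p = 0.138) and the list's median 0.10. Averaged over genotypes, Tpm4, a cytoskeletal tropomyosin gene, rose by 0.51 (SE 0.09, adjusted p = 0.0110) and Abra, an SRF-activating actin-binding protein gene of striated muscle, by 0.43 (SE 0.09, adjusted p = 0.0263, and 0.0556 without WT exercised replicate 1). That count of 2, beside 1.6% of all genes called, was 3 without KO sedentary replicate 3 and 1 without WT exercised replicate 1. Between genotypes, averaged over conditions, 0 of 22 were called, 11 were positive and the median was -0.00. That comparison called 0.546% of all genes, so a count of 0 in a list of 22 tells little. The part of SRF in the Actc1 difference was not tested.

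The developmental list gave 1 call: Myod1, the myogenic master regulator gene, fell by 0.63 after exercise averaged over genotypes (SE 0.10, limma adjusted p = 0.00349). It measured 5.99, 6.10 and 6.26 on KO exercised arrays, 6.75, 6.55 and 7.06 on KO sedentary, 6.16, 6.53 and 6.59 on WT exercised and 6.92, 7.15 and 6.97 on WT sedentary arrays. Exercised arrays were below sedentary arrays in each genotype, the opposite order from Ankrd1 in WT muscle. Of all genes, 6.77% showed this order in KO muscle and 7.14% in WT muscle. Its difference in KO muscle alone was -0.67 (adjusted p = 0.0679, 0.0304 without WT exercised replicate 1 and 0.246 without KO sedentary replicate 3) and in WT muscle -0.58 (adjusted p = 0.109). The list's median exercise difference was -0.18 in KO muscle, -0.03 without KO sedentary replicate 3, and 0.18 in WT muscle. In the fit of all arrays, the other 14 genes of the list were not called in any of the 7 comparisons.

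The starts of Ankrd1 and Ankrd2 are shown beside each other because these related genes, both on chromosome 19, gave the 2 largest exercise differences of the 8 in WT muscle. The RefSeq windows are at chr19:36119795-36120094 on the minus strand and chr19:42035777-42036076 on the plus strand (GRCm38.p6). Capitals mark CATTCC, which reads GGAATG where it lies on the opposite strand, and TATAAA.
Ankrd1: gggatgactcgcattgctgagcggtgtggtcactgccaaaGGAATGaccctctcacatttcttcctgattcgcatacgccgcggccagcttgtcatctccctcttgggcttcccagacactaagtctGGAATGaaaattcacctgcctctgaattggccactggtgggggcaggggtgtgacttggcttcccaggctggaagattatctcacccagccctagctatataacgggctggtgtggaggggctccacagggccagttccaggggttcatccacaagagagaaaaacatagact
Ankrd2: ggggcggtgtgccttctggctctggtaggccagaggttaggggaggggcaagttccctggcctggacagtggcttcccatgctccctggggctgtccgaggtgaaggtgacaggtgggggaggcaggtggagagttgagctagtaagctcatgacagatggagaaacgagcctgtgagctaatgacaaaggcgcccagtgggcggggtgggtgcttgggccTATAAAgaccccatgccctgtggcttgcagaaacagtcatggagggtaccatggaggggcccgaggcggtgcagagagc
Ankrd1 had MCAT matches on the opposite strand at positions -210 and -123, and 14.66% of all windows held at least 1. Ankrd2 had no MCAT match in this window, TATAAA at position -29 and 3 E-box matches. Over the 12 arrays, as a description only, Ankrd1 followed the mean level of the YAP and TEAD list (r = 0.833, rho = 0.860), and Ankrd2 that of the titin-linked and Z-disc list (r = 0.727, rho = 0.713). These were each gene's highest r among all the lists compared, the cell type markers included. Ankrd2 had an r of 0.642 with the SRF list (rho = 0.657), and Ankrd1 one of 0.572 with the titin-linked and Z-disc list (rho = 0.469). Ankrd1 with Ccn2 had an r of 0.617, and 0.417 without KO exercised replicate 2 and WT exercised replicate 2. Whether TEAD factors act on Ankrd1 was not tested.

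The spread of the 8 genes between mice of 1 group was unlike that of most genes. The SD within groups was 0.712 for Myh3, 0.560 for Actc1, 0.521 for Ankrd1, 0.445 for Tnnt2, 0.356 for Myl4, 0.308 for Ankrd2, 0.266 for Myh8 and 0.0375 for Acta1, and its median over the 13747 genes was 0.163 (log2). For 7 of the 8, then, arrays of 1 group differed more than they did for the median gene. Genes with the most similar values over the 12 arrays, as a description, were Tsfm, Mul1 and Cstad for Actc1 (r = 0.921, 0.884 and 0.869), Tgfb1i1, Cd300ld and Wdr81 for Ankrd1 (0.905, 0.872 and 0.840), and Ccn5, Tnc and Angptl1 for Tnnt2 (0.933, 0.931 and 0.916). For Ankrd2 they were Otulin, Csrp3 and Sap30 (0.912, 0.910 and 0.900), for Acta1 Eef1b2, Rnaseh2b and Svop (0.875, 0.872 and 0.868), and for Myh8 Apobec2, Mrpl23 and Cda (0.885, 0.848 and 0.833). After Myl4, Myh3 was most like Fam167a and Poglut1 (0.890 and 0.883), and by r Myl4 was about as much like Lcp1 (0.927) as like Myh3. By rank some of these were weaker, with rho 0.545 for Myl4 with Lcp1, 0.434 for Myl4 with Myh3 and 0.497 for Myh8 with Mrpl23. All were picked for the highest r among the named genes tested.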

How the data were processed

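RNA of each plantaris was labelled with a whole-transcript kit and hybridised to 1 Affymetrix array per sample, per the labels' protocols. The authors deposited 1 table of log2 expression values per transcript cluster; Partek is named, without a version, per the submitters' processing notes. The log base was read from the range of values, 0.36 to 13.9, and the background correction and normalization are not given in the sources used here. Array medians lay between 4.52 and 4.60.

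Of 41345 rows, 23521 had 1 gene symbol, 1814 had several and 16010 had none. Rows with 1 symbol were used, 23328 of them with an identifier in the reference gene table (GRCm38.p6), which gave 22180 genes. Genes above the table median of 4.56 on at least 3 arrays, 13747 in all, went into limma 3.58.1 under R 4.3.3 (lmFit, eBayes with an intensity trend), in 1 fit of 12 arrays with 4 group means and 8 residual degrees of freedom. From it 7 contrasts were drawn, two-sided, adjusted by Benjamini-Hochberg over all genes tested and called at an adjusted p under 0.05. The fit was tested on simulated data. The number of arrays limits the precision.

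The members and the gene lists were chosen with earlier results of these data known. Other genes were named by rule: those of a list called in a comparison, or up to 3 with its smallest unadjusted p, and the 3 with the highest Pearson r to a member. Ncam1, Mymk and Cdh15 were named after their values were seen. Promoter windows came from the RefSeq table of GRCm38.p6 (32851 windows of 27025 genes). Alternatives were other filters, scalings, row rules, spread models, array weights and each array left out in turn, and the lists without the 2 arrays that stand apart, chosen after seeing the data.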

Additional observations from a re-analysis of the deposited data

How the results depend on the processing

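Of the 8 genes, 1 was called between genotypes averaged over conditions (Actc1), and 0 by an analysis of variance without shared spread (adjusted p = 0.254) and 0 to 1 with an array left out. Between genotypes in exercised mice the count was 0, and 1 (Actc1) with arrays centred on their medians (adjusted p = 0.0460), with only the groups compared (0.0316) or with array weights (0.00615), and 0 to 1 with an array left out (0.00977 without WT sedentary replicate 1, 0.0143 without replicate 2). Actc1 stayed uncalled there in 15 of 20 alternatives, and its adjusted p ranged from 0.00615 to 0.491 (analysis of variance). After exercise in WT muscle the count was 0, and 1 with only the groups compared (Ankrd1, adjusted p = 0.0414; 0.0414 to 0.666 over its 20 alternatives). In the other comparisons it was 0 under every alternative run. Over all genes, the analysis of variance gave the lowest and array weights the highest counts, except as noted: 12 and 127 against 78 (exercise in WT), 0 and 83 against 38 (exercise in KO), 67 and 348 against 220 (exercise averaged), 23 and 193 against 75 (genotype averaged), 1 and 89 against 24 (genotype in exercised), and 1 and, without WT exercised replicate 1, 27 against 19 (genotype in sedentary). The Actc1 genotype difference kept its direction under all 19 alternatives (-1.58 to -1.12). The cause of these changes was not tested. No paired analysis was possible because the labels give no replicate number shared between groups. Myh3 lay near the table median, so its differences are poorly determined, and Acta1 near the top of the range.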
